A study of Homo sapiens with 2 samples.

Results

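The 4 ID genes, the inhibitory SMAD genes SMAD6 and SMAD7, and BAMBI, SKI, SKIL and TGIF1 were examined in HepG2 cells, a human hepatoma cell line, after berberine treatment. These 10 genes are response genes of bone morphogenetic protein (BMP) and transforming growth factor beta (TGF-beta) signalling, and most of them act back on that signalling. They were taken by name from the platform annotation, with every probe annotated to them, and together they held 20 of the 47231 probes and were 10 of the 20039 named genes on the array. The treated cells received 40 µM berberine chloride, a plant alkaloid dissolved in dimethyl sulfoxide (DMSO), for 4 h. The control cells received 0.08% DMSO for 4 h. Both groups were the same line in the same serum-containing medium, without an added BMP or TGF-beta ligand in the labels, and each group was 1 sample on 1 Illumina BeadChip. There were therefore no replicates, no test between groups was possible, and each difference given here compares these 2 arrays.

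BMP and TGF-beta ligands bind paired receptor kinases, which phosphorylate receptor-activated SMAD proteins. These join the common SMAD4, enter the nucleus and switch target genes on or off. Among the classic targets are the ID genes, whose proteins bind basic helix-loop-helix (bHLH) transcription factors and keep them off DNA, and genes whose products dampen the pathway: SMAD6 and SMAD7 at the receptors, BAMBI as a receptor decoy, and SKI, SKIL and TGIF1 as repressors that sit on SMAD complexes. In the liver the BMP branch sets the level of hepcidin, the iron hormone.

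Of the 10 genes, TGIF1, SMAD7 and ID2 were over 1.5-fold higher in berberine-treated cells, and no gene of the 10 was over 1.5-fold lower. SKIL was detected on the berberine array only. ID1, ID3, SMAD6, BAMBI and SKI lay within 1.5-fold, and ID4 was detected on neither array. The 3 higher genes were 3 of 8 measured on both arrays, against 3.87% over 1.5-fold higher, 4.09% lower and 7.95% in either direction among all 9128 measured genes. In the normalized intensity that the authors deposited, which keeps the background, the same 3 genes passed 1.5-fold, against 1.44% of all genes higher and 1.01% lower. The median log2 difference of the 8 genes was 0.32, and that of all measured genes was -0.01. Since these genes were chosen with results of these arrays known, the counts describe the genes and are no evidence that the group stands apart.

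**Figure D1:**
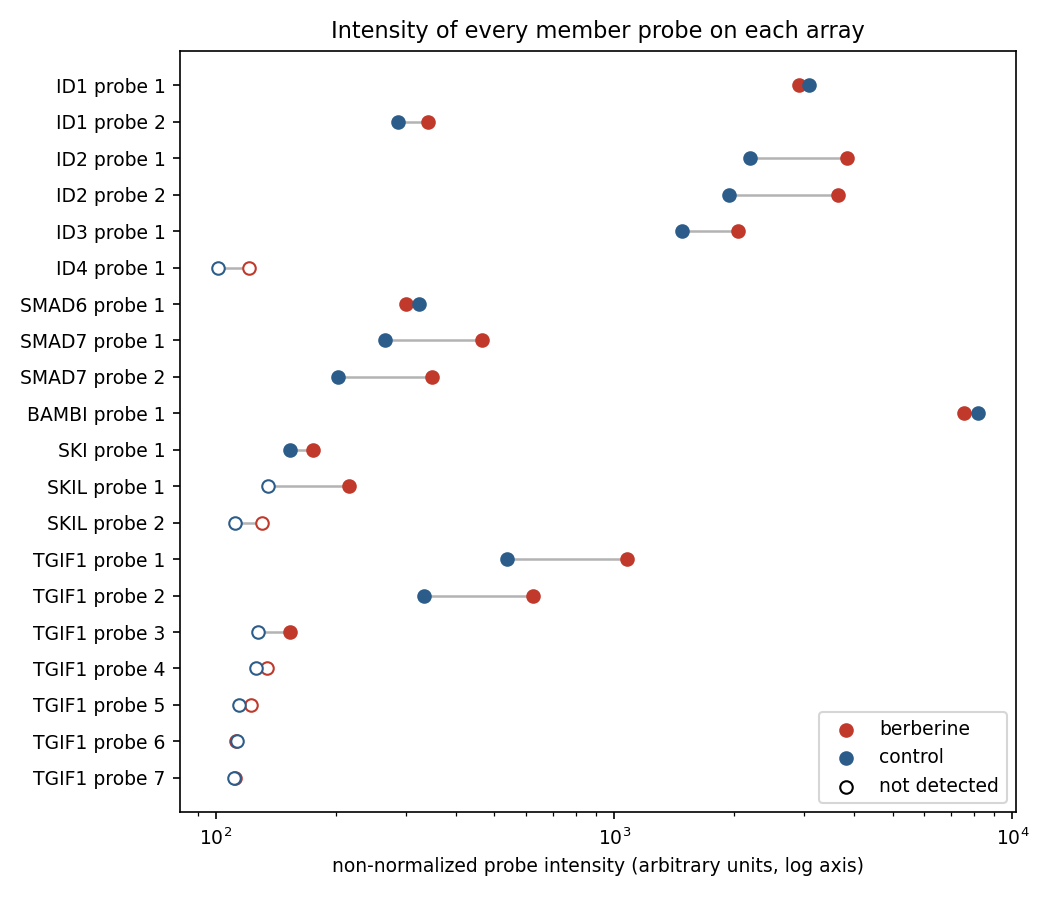
Non-normalized intensity (arbitrary units, log axis) of all 20 probes of the 10 genes, numbered within a gene by brightness, on the berberine array and on the control array, with open circles for probes not detected at a detection p under 0.01. Both probes of ID2 and of SMAD7 and the 2 brightest of TGIF1 are brighter in berberine-treated cells, the circles of SMAD6, BAMBI and the brighter ID1 probe nearly coincide, and most other probes of TGIF1 are not detected.

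A probe was called detected when its detection p, the share of the array's 770 negative-control values at least as bright, was under 0.01. The lowest detected intensity was 151.5 on the berberine array and 141.6 on the control array. Detection was alike on both arrays, with 32.6% of probes on the berberine array and 32.5% on the control array, and the median intensity was 130.1 on the berberine array and 120.6 on the control array. Because that overall shift is not removed from the non-normalized intensity, fold changes were taken after background correction and quantile normalization. All 13 hepatocyte markers, ALB, TTR and AFP among them, were detected and lay between -0.18 and 0.16 on the log2 scale, and none passed 1.5-fold. Of markers of other cell types, ACTA2 was the single detected one of 9 for fibroblasts and stellate cells, with a log2 difference of -0.06, and ESAM the single one of 7 for endothelial cells, with 0.87. Of 8 immune cell markers, 3 were detected, CD68, LYZ and AIF1, at 0.29 to 0.45, and PTPRC was not detected. The part of these markers in the differences of the 10 genes was not tested. Both samples were the same line, HepG2, with no other cell type in the labels. In bulk RNA, fewer cells expressing a gene and less of its RNA per cell cannot be told apart.

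Promoter sequence was examined because the genes share a pathway. RefSeq windows on GRCh38.p14 of 300 bases, 250 before and 50 after each annotated start, were held for 9 of the 10 genes, with 17 windows in all, of which 3 belong to SMAD7 and 7 to TGIF1. They were searched on both strands for GTCTAGAC, the palindrome that SMAD proteins bind, GGCGCC, a GC-rich element of BMP-responsive promoters, TGACGTCA, the cAMP response element, and TGACTCA, the AP-1 site. These do not overlap one another in the matches found. The SMAD palindrome occurred in the window of SMAD6 alone among the genes examined, 12 bases before the start, and in 0.202% of all 35116 windows. The cAMP response element occurred for SKIL alone, 54 bases before the start, and in 1.85% of all windows. The AP-1 site occurred in no window of these genes and in 4.95% of all windows. The stretches with the matches of 8 bases are shown, with the match in capitals. A match is a sequence of letters and no evidence that a factor binds, and no link to the differences between the arrays was tested.
SMAD6, chr15:66702213-66702242, plus strand: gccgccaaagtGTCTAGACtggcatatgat
SKIL, chr3:170357650-170357679, plus strand: cgaggactcggTGACGTCAgagggctgtgt

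The GC-rich element was found in windows of BAMBI and SKIL and in 19.2% of all windows. None of the 4 motifs was found in the windows of ID1, ID2, ID3, ID4, SMAD7 or TGIF1, which says only that they are not in these stretches. Other regulatory sequence, introns and distal enhancers included, was not analysed here.

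The ID proteins lack a DNA-binding region and sequester bHLH factors, and ID1 to ID3 are standard readouts of BMP signalling. ID2 (chromosome 2, 8682056 to 8684461) had an intensity of 3849 in berberine-treated cells and 2195 in control cells at its brighter probe. Its second probe gave 3649 in berberine-treated cells and 1942 in control cells. Both probes were brighter after berberine by a similar amount, 1.67-fold and 1.80-fold, with log2 differences of 0.74 and 0.84. Of all measured genes, 198 (2.17%) had a larger difference than the brighter probe. The values were 1.64-fold and 1.76-fold in the deposited normalized intensity. RefSeq lists an ID2B pseudogene on chromosome 3, and whether its transcripts reach these probes is not given in the sources used here.

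ID3 (chromosome 1, 23557926 to 23559501), whose protein shares the ID mode of action, had 1 probe with an intensity of 2047 in berberine-treated cells and 1477 in control cells. It was 1.31-fold higher, with a log2 difference of 0.39 (1.28-fold in the deposited values), below the 1.5-fold threshold, and 779 genes (8.53%) had a larger difference. ID1 (chromosome 20, 31605289 to 31606510), the most widely used BMP target of the family, had 2909 in berberine-treated cells and 3086 in control cells at its brighter probe. Its dimmer probe had 341 in berberine-treated cells and 286 in control cells. The 2 probes went opposite ways, with log2 differences of -0.20 and 0.25, so no direction can be given for ID1. ID4 (chromosome 6, 19837370 to 19842197), a family member known mainly from neural and glial cells, had 121 in berberine-treated and 101 in control cells, with detection p-values of 0.458 in berberine-treated and 0.948 in control cells, and no fold is given.

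How far 2 probes of a gene differ gives a partial error. Over 2193 genes with at least 2 detected probes, the SD of a single probe was 0.25 on the log2 scale. With the measured genes split by brightness into terciles, it was 0.20 in the brightest, which holds ID1, ID2, ID3, BAMBI and TGIF1, 0.26 in the middle one, which holds SMAD6 and SMAD7, and 0.31 in the dimmest, which holds SKI. This SD covers probe error and transcript forms and leaves out the spread between cultures. The differences of ID2, SMAD7 and TGIF1 were over 3 times the SD of their tercile, and those of SKI and the brighter ID1 probe were within it. ID2 differed from ID1 by 0.94 and from ID3 by 0.35 at their brighter probes, where the SD of such a gap was 0.28 for both pairs, so the gap to the brighter ID1 probe was over 3 times that SD and the gap to ID3 was close to it. Against the dimmer ID1 probe the gap was 0.49, with an SD of 0.33, so its size depends on the ID1 probe taken.

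SMAD7 and SMAD6 encode the inhibitory SMADs, which block receptor-activated SMADs at the receptor. SMAD7 acts on both the TGF-beta and the BMP branch, SMAD6 mainly on BMP signalling. SMAD7 (chromosome 18, 48919853 to 48950965) had intensities of 466 and 349 at its 2 probes in berberine-treated cells, against 266 and 203 in control cells. Both probes were detected on both arrays and both were brighter after berberine, 2.03-fold and 2.22-fold. The log2 differences were 1.02 and 1.15, and 87 genes (0.953%) had a larger difference than the brighter probe. In the deposited values, where the background remains, SMAD7 was 1.64-fold and 1.63-fold higher, so it stayed above 1.5-fold but not above 2-fold.

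SMAD6 (chromosome 15, 66702236 to 66782849) did not share this difference. Its probe had 300.4 in berberine-treated cells and 322 in control cells, with a log2 difference of -0.27 (-0.18 in the deposited values), about the SD of a single probe. The gap between SMAD7 and SMAD6 was 1.29 on the log2 scale, with an SD of 0.37 from probe pairs, and 0.89 in the deposited values. BAMBI (chromosome 10, 28677521 to 28682932), a membrane protein shaped like a receptor but without its kinase, had 7563 in berberine-treated cells and 8205 in control cells. It was bright on both arrays, with a log2 difference of -0.22 that was 1.17-fold lower and within the 1.5-fold threshold.

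**Figure D2:**
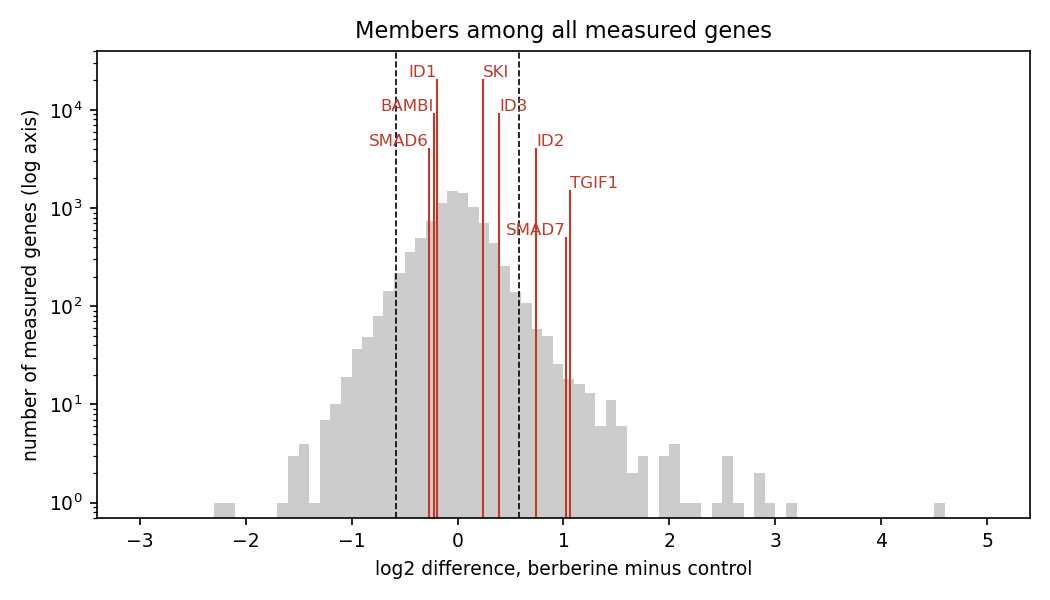
Log2 difference of berberine minus control (x axis) for all 9128 measured genes as a histogram with a log count axis, with the 8 measured genes of the group as red lines and 1.5-fold as dashed lines. TGIF1, SMAD7 and ID2 lie at 1.06, 1.02 and 0.74 in the upper tail, and SMAD6, BAMBI, ID1, SKI and ID3 lie within the dashed lines.

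SKI, SKIL and TGIF1 encode nuclear repressors that bind SMAD complexes and recruit histone deacetylase activity. TGIF1 (chromosome 18, 3412009 to 3459978), a homeodomain protein, had 7 probes, more than the other genes examined. Its brightest probe had 1077 in berberine-treated cells and 537 in control cells, and the next had 625 in berberine-treated cells and 333 in control cells. Both were brighter after berberine by about the same amount, 2.09-fold and 2.12-fold, with log2 differences of 1.06 and 1.08, and 79 genes (0.865%) had a larger difference than the brightest probe. In the deposited values they were 1.89-fold and 1.78-fold higher.

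The other 5 probes of TGIF1 gave no such difference. One of them was detected on the berberine array only, at 153.3 against 127.1 in control cells, and its lower bound of 1.03-fold leaves no size to report. The remaining 4 were detected on neither array, with intensities of 112 to 134 in berberine-treated cells and 111 to 126 in control cells. The 7 probes are annotated to 5 transcripts, and 3 of them, both bright ones and 1 undetected, to the same transcript. The values of TGIF1 given here are thus those of 2 probes of 1 annotated transcript.

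SKIL (chromosome 3, 170357715 to 170396849) encodes SnoN, the close relative of SKI that is degraded when TGF-beta signals arrive and is itself a TGF-beta target. Its brighter probe had 215.8 in berberine-treated cells and 135.3 in control cells. It was detected after berberine, with no negative control as bright, and missed detection in control cells, with a detection p of 0.0169. Against the lowest detected value on the control array it was at least 2.39-fold higher on the background-corrected scale and at least 1.43-fold in the deposited values, so the second bound lay under 1.5-fold. Among 380 genes detected on the berberine array only, 11.8% had a bound over 1.5-fold, and 8 had a larger bound than SKIL. The second SKIL probe was detected on neither array, with 130.4 in berberine-treated cells and 111.4 in control cells and detection p-values of 0.136 in berberine-treated and 0.513 in control cells, so the difference rests on 1 probe.

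SKI (chromosome 1, 2228319 to 2310213) was dim, with 175.2 in berberine-treated cells and 153.7 in control cells and a detection p of 0.0026 on each array. Its log2 difference of 0.24 was smaller than the SD of 0.31 for genes of that brightness, and 0.09 in the deposited values. The gap between TGIF1 and SKI was 0.82, with an SD of 0.37.

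**Figure D3:**
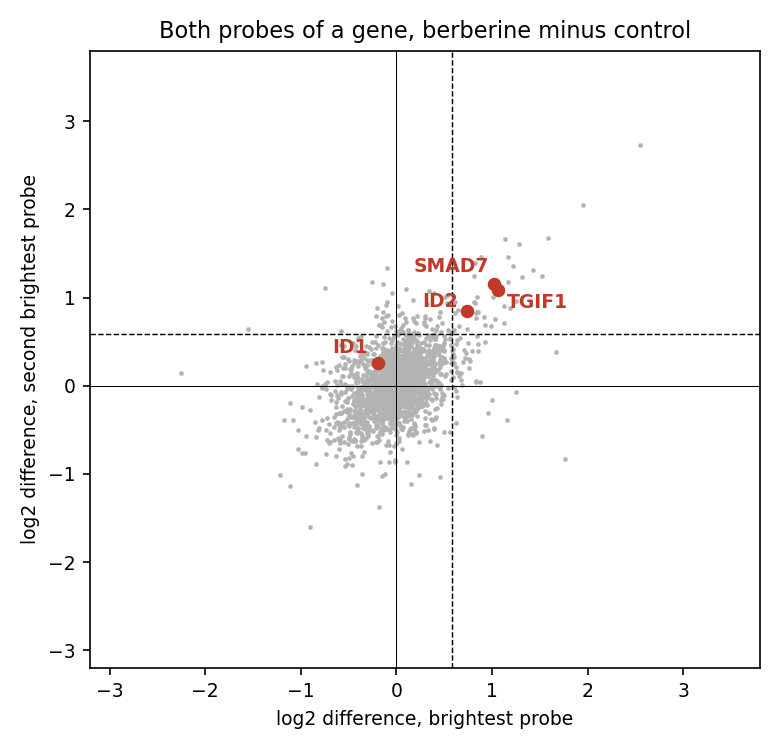
Log2 difference of berberine minus control for the brightest (x axis) and the second brightest (y axis) detected probe of 2193 genes, with ID1, ID2, SMAD7 and TGIF1 in red and 1.5-fold as dashed lines. ID2, SMAD7 and TGIF1 lie above 1.5-fold on both axes, and ID1 lies at -0.20 and 0.25.

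The 4 genes of the group with at least 2 detected probes were ID1, ID2, SMAD7 and TGIF1, and for 3 of them both of the 2 brightest probes were over 1.5-fold higher. Among all 2193 genes with such pairs, 42 (1.92%) met the same condition. In the deposited values the same 3 genes met it, against 22 (1%) of all such genes.

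The wider pathway was read from 152 other genes in 9 lists by role, of which 144 were on the array and 70 were measured on both arrays. Of these 70, 17 (24.3%) were over 1.5-fold higher and 2 (2.86%) lower, with a median log2 difference of 0.15. Among all measured genes these shares were 3.87% and 4.09%. The deposited values put 11 of the 70 above and 1 below that threshold, where 1.44% and 1.01% of all measured genes lay. These lists, too, were drawn up with results of these arrays known. A further 11 genes were detected on 1 array only and 63 on neither.

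Ligands were mostly undetected, and 3 of 22 on the array were measured. GDF15, a distant family member released by stressed cells, had the only difference over 1.5-fold, with 17909 in berberine-treated cells and 2332 in control cells. BMP4 and INHBE, which encodes an activin subunit of the hepatocyte, had log2 differences of -0.34 and 0.31. BMP2, BMP6, TGFB1, TGFB2 and INHBA were not detected.

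Of the receptors and co-receptors, 8 of 19 were measured and 1 passed 1.5-fold in each direction. Among all measured genes 3.87% were higher and 4.09% lower. BMPR2, the type II BMP receptor, had 178 in berberine-treated cells and 235 in control cells, 1.98-fold lower, and its second probe gave a log2 difference of -0.76. It was 1.40-fold lower in the deposited values. RGMB, a BMP co-receptor, was 1.66-fold higher at 184 in berberine-treated cells and 143 in control cells, and 1.21-fold in the deposited values. Its control value lay close to the lowest detected intensity on that array, 141.6, and no other RGMB probe was detected on both arrays. Other receptors lay within the threshold, ACVR2A at -0.58, ACVR1 at 0.36 and TGFBR2 at 0.40.

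The SMADs that carry the signal did not pass 1.5-fold. The 4 measured were SMAD5 at -0.40, SMAD2 at -0.12, SMAD3 at -0.07 and SMAD4 at 0.18 on the log2 scale. SMAD1 was not detected on either array. Of the SMAD family, SMAD7 was thus the one over 1.5-fold among the 6 measured.

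Secreted antagonists had 2 of 6 measured genes higher (1 in the deposited values) and none lower. Of all measured genes, 3.87% were higher (1.44% in the deposited values) and 4.09% lower. FST, follistatin, which binds activins, had 3498 in berberine-treated cells and 1393 in control cells, 2.43-fold higher, and its second probe gave a log2 difference of 1.61. GREM1, gremlin 1, which binds BMP ligands, had 433 in berberine-treated cells and 276 in control cells, 1.73-fold higher and 1.47-fold in the deposited values. Noggin, NOG, was not detected.

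Among ubiquitin ligases, phosphatases and adaptors of SMADs, 15 were measured, 2 were higher (1 in the deposited values) and the median was 0.03. The shares over all measured genes were 3.87% higher and 4.09% lower, and 1.44% and 1.01% in the deposited values. PPP1R15A, which SMAD7 uses to bring a phosphatase to the type I TGF-beta receptor, was 7.39-fold higher. PPM1A, a phosphatase of receptor-activated SMADs, was 1.94-fold higher at its brightest probe (1.42-fold in the deposited values), but its second probe gave -0.31. Of 11 measured co-factors none was higher, while CITED2, which brings in the acetyltransferases CREBBP and EP300, had 181 in berberine-treated cells and 293 in control cells, 2.72-fold lower (1.73-fold in the deposited values). EP300 itself had a log2 difference of 0.48. RUNX1, detected in control cells only, was at least 1.72-fold lower (at least 1.22-fold in the deposited values).

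**Figure D4:**
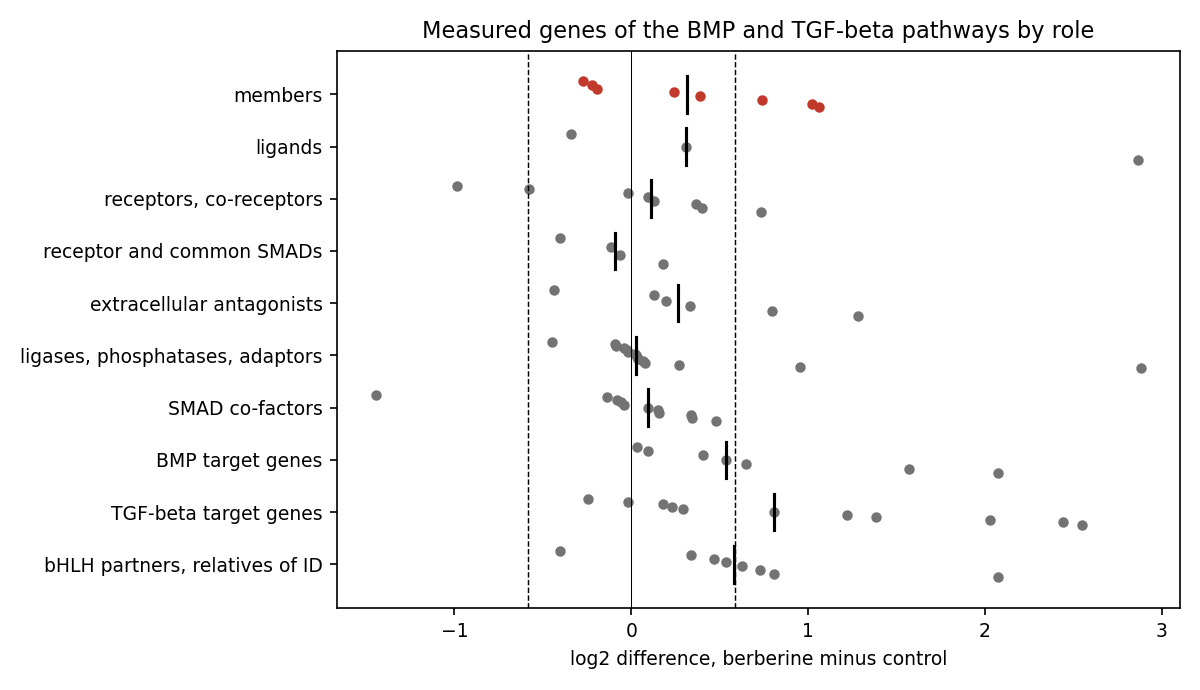
Log2 difference of berberine minus control (x axis) for each measured gene of the BMP and TGF-beta pathways, in rows by role, with black bars at the row medians and 1.5-fold as dashed lines. The row of TGF-beta targets has the highest median, 0.81, and the receptor-activated and common SMADs all lie within the dashed lines.

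Target genes of the pathway were described by branch. Of 7 measured BMP targets, with a median of 0.54, 3 were over 1.5-fold higher, against 3.87% of all measured genes. In the deposited values 2 of 7 were higher, against 1.44% of all. HAMP, which encodes hepcidin, had 1871 in berberine-treated cells and 653 in control cells, 2.98-fold higher. HES1, a bHLH repressor better known as a Notch target, was 4.21-fold higher (2.65-fold in the deposited values), and GATA2, a transcription factor, was 1.57-fold higher (1.29-fold in the deposited values). MSX1, a homeobox gene, had a log2 difference of 0.10, and ATOH8 and MSX2 were not detected.

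Of 11 measured TGF-beta targets, 6 were over 1.5-fold higher and none lower, with a median of 0.81, the highest of the 9 lists, against 3.87% of all measured genes higher. All 6 passed in the deposited values, against 1.44% of all. They were CCN2 at 2.55, the transcription factor JUNB at 2.44 (1.45 in the deposited values), GADD45B at 2.03 (1.13), BIK at 1.38 (0.86), the cell cycle inhibitor CDKN1A at 1.22 and BHLHE40 at 0.81. In control cells JUNB had 161 and GADD45B 160, near the lowest detected intensity there, 141.6, so their sizes depend on the background correction. THBS1 and KLF10 were detected after berberine only. On the background-corrected scale THBS1 was at least 7.87-fold higher and KLF10 at least 1.60-fold, and in the deposited values, where the background remains, at least 3.12-fold and 1.18-fold. Other classic targets did not share this, with TGFBI at 0.18, SNAI2 at 0.23 and TSC22D1 at -0.24 (0.24 and -0.56 at its other probes), and PMEPA1 and SNAI1 were not detected. FN1 had 0.29 at its brighter probe and 0.73, which is over 1.5-fold, at its second. The brighter FN1 probe was dim, with 178 in berberine-treated cells and 153 in control cells. The SNAI2 probe, with 184 and 162 in the same order, was dim as well. The lowest detected intensities were 151.5 on the berberine array and 141.6 on the control array, so the size of these differences is uncertain. Several of the higher genes, JUNB, CCN2, GADD45B and KLF10 among them, are also known to be induced by growth factors and stress. Whether that holds in these cells was not tested.

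The last list held bHLH factors, among them partners of ID proteins, and also ETS factors and RB1. Of its 8 measured genes, 4 were over 1.5-fold higher, against 3.87% of all measured genes, with a median of 0.58. In the deposited values 2 of 8 were higher, against 1.44% of all, with a median of 0.36. TCF12, an E protein and direct ID partner, had 416 in berberine-treated cells and 276 in control cells, 1.65-fold higher (1.41-fold in the deposited values), and its second probe gave 0.81. TCF3, the other measured E protein, had a log2 difference of -0.40, and TCF4 was not detected. RB1, which ID2 binds, was 1.54-fold higher (1.23-fold in the deposited values), and HES1 and BHLHE40 have been given above. ELK1, an ETS factor detected in control cells only, was at least 1.99-fold lower, and at least 1.30-fold in the deposited values.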

How the data were processed

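Total RNA of HepG2 cells was hybridized to Illumina HumanHT-12 BeadChips, 1 array per group. The authors deposited probe intensity without normalization, each value with its detection p-value, and a second table of linear intensity normalized between arrays. The submitters' processing notes name GenomeStudio. Its version and the normalization were not stated in the paper, labels or headers. The main values came from the first table through neqc (limma 3.58.1, R 4.3.3), which corrects the background from the detection p-values, adds an offset of 16, quantile-normalizes and takes log2, so that folds of dim probes exceed those of the deposited normalized intensity. Differences are berberine minus control. Python 3.11.15, pandas 2.3.3, numpy 2.4.6 and matplotlib 3.10.9 served for the rest.

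Of 47231 probes, 30113 had 1 gene symbol, updated through the Entrez identifier or accession to RefSeq of GRCh38.p14, 8 had several and 17110 none. A gene was measured when a probe had a detection p under 0.01 on both arrays, and its value was that of the brightest such probe. For a gene detected on 1 array only, a lower bound was taken against its own dim value or the lowest detected value there, whichever was higher. The study's fold threshold of 1.5 was used without the p-value condition that the study paired with it, so counts here are not those of the study. The number of arrays limits the precision, and with no replicates no p-value between groups or standard error was computed. The genes, role lists and rules were chosen with earlier results of these data known. Named genes are all 10 of the group and, per list, those past 1.5-fold, bounds over 1.5-fold and the 2 largest absolute differences, and other genes were named after their values were seen. Probe positions within genes were not used here, and 8 genes of the role lists were not analysed here. The steps were run on simulated data with known folds, built from the control array's signal for both arrays. That run checks the steps alone and leaves out the spread between cultures.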

Additional observations from a re-analysis of the deposited data

How the results depend on the processing

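Alternatives covered the background correction, normalization, offset, detection filter, summary of probes and threshold. All 32 recomputed differences of the 8 measured genes (4 settings each) kept their sign, and 30 stayed within 1 single-probe SD of the main value. The mean of the detected probes was not applied to these differences, which kept the brightest probe of each gene. For ID1 the 2 probes went opposite ways, at -0.20 and 0.25, so its kept sign gives no direction. SMAD7 moved to 0.72 without background correction and to 0.71 in the deposited normalized intensity, from 1.02, and the lower bound of SKIL moved to 0.52 and 0.51 on the log2 scale under these settings and to 0.84 with an offset of 50, against 1.26. ID2, SMAD7 and TGIF1 were over 1.5-fold higher under all alternatives at that threshold, SKIL was added when the detection filter was loosened or dropped, and at 2-fold SMAD7 and TGIF1 remained. The values without background correction and the deposited values were nearly alike for these genes, so they are not separate checks. Pathway genes over 1.5-fold numbered 19 (17 higher, 2 lower), and 12 (11 and 1) without background correction and in the deposited values and 11 (10 and 1) at 2-fold. Lower pathway genes numbered 4 with a detection p under 0.05, with detection on at least 1 array and with no filter. All measured genes over 1.5-fold numbered 726 (353 higher, 373 lower), 223 (131 and 92) without background correction and in the deposited values, 431 (213 and 218) with an offset of 50, 1342 (671 and 671) with no filter and 141 (94 and 47) at 2-fold, and 533 were higher with detection on at least 1 array. The share of higher genes among the calls was 48.6% in the main values and 58.7% in the deposited values. Signal over background limits SKI, SKIL, ID4 and the dim probes of TGIF1. No paired analysis was possible because each group has 1 array, and no replicate could be left out.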
